A study of Mus musculus with 24 samples.

Results

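Expression of 9 genes known for their roles in natural killer (NK) cells was examined in conventional dendritic cells (cDC) sorted from mouse spleen. The 9 genes were Ncr1, Klrb1c, Klrk1, Klrc1, Klrd1, Klre1, Txk, Eomes and Tbx21, out of 19938 genes that the array measures with a probe set assigned to a single gene symbol. They were chosen because earlier results of these same arrays had shown NK cell genes moving after CpG, so their levels and differences are described here without a test. Each of the 9 has 1 probe set, and expression is given as the deposited log2 value, on which a difference of 1.00 is a doubling. Female NOD/ShiLt and C57BL/6 (B6) mice of 8 to 10 weeks received CpG-A, a synthetic DNA that stimulates Toll-like receptor 9, or phosphate-buffered saline (PBS). After 12 hours the spleens were digested with collagenase, and CD8+ cDC and CD11b+ cDC were sorted from the CD11c+ cells. Subset, strain and injection gave 8 groups of 3 arrays, 24 arrays in all. NOD mice develop autoimmune diabetes spontaneously and B6 mice are the control strain. The labels number the replicates within a group but do not say whether each came from a separate animal or a pool, so a p-value here speaks only to the scatter among these arrays, part or all of which may be technical.

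NK cells are innate lymphocytes that kill stressed, infected or transformed cells and secrete interferon gamma. They weigh signals from activating and inhibitory receptors, many of them C-type lectin-like proteins encoded together in the NK gene complex, and the T-box factors Eomes and Tbx21 (T-bet) direct their development and effector genes. Splenic cDC activate NK cells through interleukin-12 and trans-presented interleukin-15, and several molecules first studied in NK cells, NKG2D and CD94 among them, have also been described on other leukocytes.

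Promoter sequences were inspected for 8 of the 9 genes, those listed in the RefSeq promoter table of build GRCm38.p6, in the 250 bases before each annotated start. Of 9 short motifs searched on both strands, picked once the values were known, the core motif TGTGGT of the RUNX family was found in at least 1 window of 6 of the 8 genes (Klrb1c, Klrc1, Klre1, Klrk1, Ncr1 and Txk), and in at least 1 window of 15.9% of all genes in the table (14.0% of its 32851 windows). The sequences of 5 receptor genes are shown because they place this shared motif in 4 genes whose values on the CpG-treated B6 CD11b+ arrays lay above all other arrays and in Klrk1, whose values there overlapped another group. Capitals mark TGTGGT or its reverse complement ACCACA, and each sequence is read 5′ to 3′ on the gene's strand.
Ncr1 (chr7:4337465-4337714, plus strand): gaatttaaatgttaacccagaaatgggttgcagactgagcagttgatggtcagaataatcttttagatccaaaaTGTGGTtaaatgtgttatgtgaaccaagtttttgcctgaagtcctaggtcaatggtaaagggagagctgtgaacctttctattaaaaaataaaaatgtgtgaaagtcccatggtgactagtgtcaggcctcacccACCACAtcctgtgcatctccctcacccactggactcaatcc
Klrb1c (chr6:128788642-128788891, minus strand): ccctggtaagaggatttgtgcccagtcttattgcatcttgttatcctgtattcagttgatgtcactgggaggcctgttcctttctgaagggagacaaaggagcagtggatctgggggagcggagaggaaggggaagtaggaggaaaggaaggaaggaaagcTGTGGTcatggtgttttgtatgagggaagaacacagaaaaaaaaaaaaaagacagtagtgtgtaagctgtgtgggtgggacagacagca
Klre1 (chr6:129577963-129578212, plus strand): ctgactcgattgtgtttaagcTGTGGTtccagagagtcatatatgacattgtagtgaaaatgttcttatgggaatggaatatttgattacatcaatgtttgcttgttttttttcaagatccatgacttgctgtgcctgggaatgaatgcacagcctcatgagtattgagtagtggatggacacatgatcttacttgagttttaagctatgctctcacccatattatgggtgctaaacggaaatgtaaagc
Klrk1 (chr6:129623865-129624114, minus strand): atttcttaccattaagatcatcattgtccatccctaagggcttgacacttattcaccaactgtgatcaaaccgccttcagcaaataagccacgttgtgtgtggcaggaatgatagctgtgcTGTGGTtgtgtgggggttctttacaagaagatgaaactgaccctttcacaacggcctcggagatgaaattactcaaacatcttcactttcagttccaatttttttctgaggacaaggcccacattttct
Klrc1 (chr6:129678974-129679223, minus strand): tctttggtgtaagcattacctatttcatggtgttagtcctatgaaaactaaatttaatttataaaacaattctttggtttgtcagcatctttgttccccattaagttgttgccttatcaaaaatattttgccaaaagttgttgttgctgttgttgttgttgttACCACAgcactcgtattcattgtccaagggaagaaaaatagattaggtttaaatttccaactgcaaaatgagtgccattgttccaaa
In Ncr1 the motif lay 176 bases before the start on the gene's strand and 41 bases before it on the opposite strand. It lay 89 bases before the start in Klrb1c, 229 in Klre1, 129 in Klrk1 and 87, on the opposite strand, in Klrc1. For Ncr1 and Klre1 the table holds a second, overlapping window from another start, and that of Klre1 lacks the motif. The other motifs were TGCGGT (5.8% of genes), AGGTGTGA (1.3%), GGTGTGA (3.8%), AGGTGT (13.6%) and TTCNNNGAA (8.1%), which none of the 8 genes held, and GGAAGTG (9.8%, 1 of the 8), AGGAAG (32.3%, 4 of the 8) and CAGGAA (28.3%, 3 of the 8). GGTGTGA and AGGTGT overlap AGGTGTGA, so these are not separate searches, and AGGAAG and CAGGAA can overlap as well. A match is only a run of letters in this window, not a bound site. By the same count TGTGGT was in 8 of 14 cytotoxic granule and effector genes and in 7 of 29 other NK receptor genes with an entry. It was in 4 of 16 adaptors and kinases, 3 of 16 ligands and cytokines and 1 of 12 other NK transcription factors. Lists of other cells ranged from 0 of 7 pan-cDC markers to 2 of 6 plasmacytoid DC markers and 2 of 6 monocyte and macrophage markers.

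The sorts carried the surface markers they are labelled with. Cd8a was between 10.99 and 11.71 on the CD8+ arrays and between 5.04 and 8.81 on the CD11b+ arrays, and Itgam, which encodes CD11b, was between 4.45 and 5.39 on the CD8+ arrays and between 6.61 and 9.03 on the CD11b+ arrays. The median over genes was between 5.75 and 5.85 on all 24 arrays, and a gene counted as tested when it was above its array's median on at least 3 of the 24, which left 11365 genes. All 9 NK genes passed this filter, but Klrb1c, Eomes and Txk passed only through the 3 arrays of CpG-treated B6 CD11b+ cDC and were above the median on 0 of the other 21, and Klre1 was above it on 1 of them. A count over the genes that passed therefore supports nothing here.

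**Figure D1:**
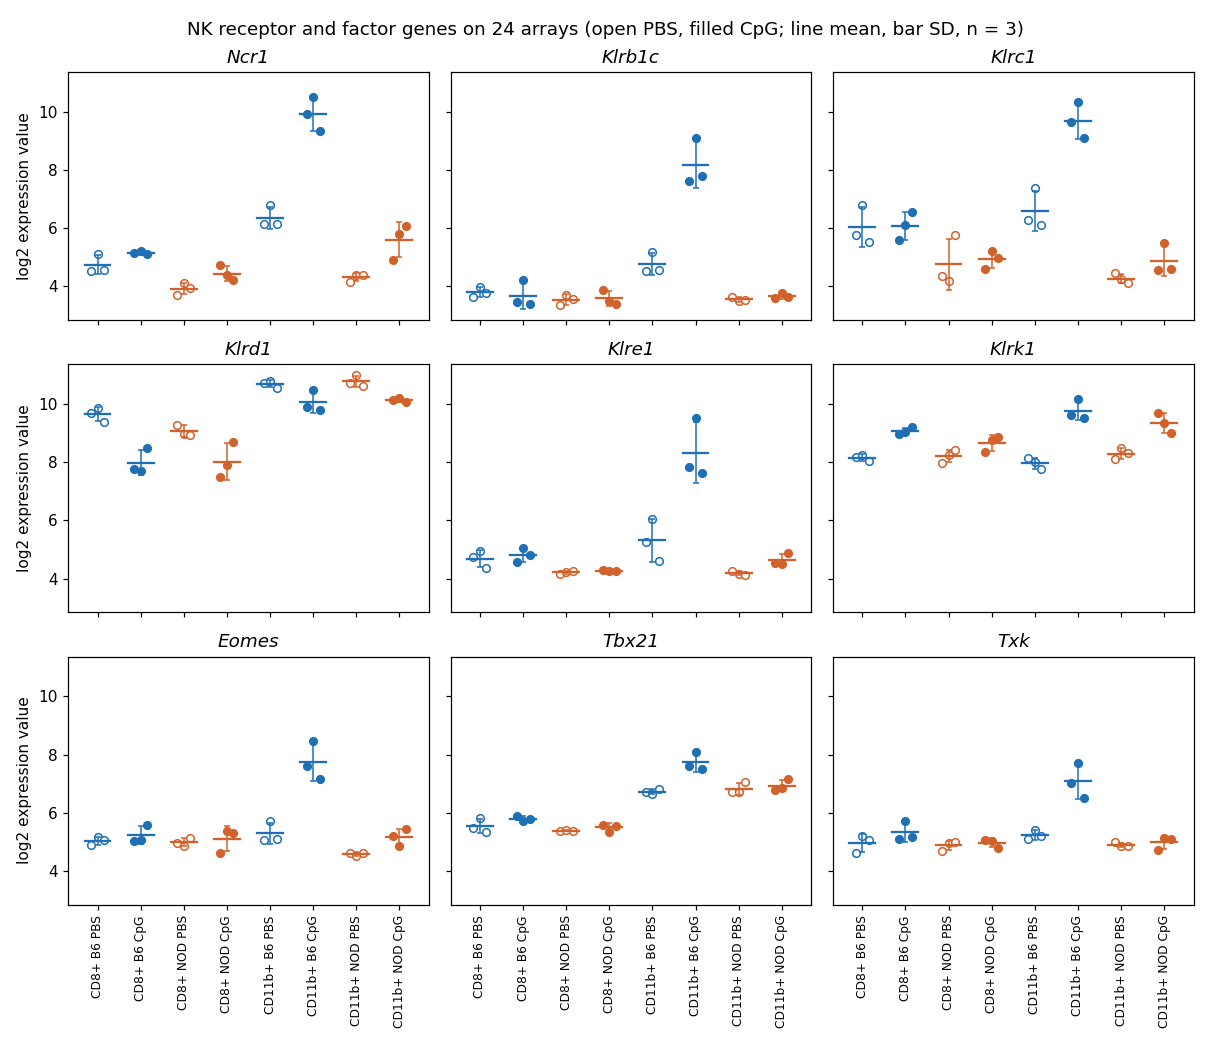
Log2 expression value (vertical axis) of the 9 genes on each of the 24 arrays, by subset, strain and injection (horizontal axis). Open symbols are PBS and filled symbols CpG, blue B6 and orange NOD, with lines at group means and bars of 1 SD (n = 3). Ncr1, Klrb1c, Klrc1, Klre1, Eomes and Txk have their highest values on the 3 arrays of CpG-treated B6 CD11b+ cDC, while Klrd1 is lower with CpG.

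Ncr1 encodes NKp46, an activating receptor that is among the most NK-restricted surface proteins. In B6 CD11b+ cDC it was at 6.13, 6.78 and 6.12 after PBS and at 9.92, 10.49 and 9.33 after CpG. The CpG-treated B6 CD11b+ arrays lay above every other array, since the other 21 ranged from 3.72 to 6.78. The difference between CpG and PBS was 3.57 ± 0.27 (SE, n = 3 against 3), or 11.9-fold. In NOD CD11b+ cDC Ncr1 was at 4.15, 4.39 and 4.39 after PBS and at 4.92, 5.81 and 6.06 after CpG, a difference of 1.29 ± 0.27, and the groups did not overlap. All 3 CpG-treated NOD arrays stayed below the lowest of the PBS-treated B6 arrays.

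Klrb1c encodes NKR-P1C, the NK1.1 antigen of B6 mice. In B6 CD11b+ cDC it was at 4.52, 5.19 and 4.55 after PBS and at 7.63, 9.10 and 7.80 after CpG, a difference of 3.42 ± 0.28. The 21 remaining arrays were between 3.35 and 5.19. The values in NOD CD11b+ cDC were 3.64, 3.49 and 3.54 after PBS and 3.59, 3.78 and 3.63 after CpG, so that the groups overlapped (difference 0.11 ± 0.28). The 12 NOD arrays ranged from 3.35 to 3.89, near the bottom of this probe set's range on all arrays.

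Klrk1 encodes NKG2D, an activating receptor for stress-induced ligands, and was well above the array median in every group. It was at 8.14, 8.00 and 7.75 in B6 CD11b+ cDC after PBS and at 9.63, 10.17 and 9.53 after CpG, and at 8.10, 8.48 and 8.32 in NOD CD11b+ cDC after PBS and at 9.68, 9.36 and 9.01 after CpG. Neither pair of groups overlapped, and the CpG-treated arrays of the 2 strains overlapped each other. The difference was 1.81 ± 0.18 in B6 and 1.05 ± 0.18 in NOD. In CD8+ cDC of B6 mice Klrk1 was at 8.18, 8.26 and 8.04 after PBS and at 8.97, 9.05 and 9.19 after CpG, again without overlap (0.91 ± 0.18), and in NOD CD8+ cDC at 7.98, 8.23 and 8.41 and at 8.34, 8.76 and 8.87, where the groups overlapped (0.45 ± 0.18). Klrk1 and Klrd1 were above the array median on all 24 arrays.

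Klrc1 and Klrd1 encode NKG2A and CD94, which pair to form an inhibitory receptor for the nonclassical class I molecule Qa-1. Klrc1 was at 6.26, 7.37 and 6.10 in B6 CD11b+ cDC after PBS and at 9.64, 10.33 and 9.09 after CpG. The groups did not overlap, and the difference was 3.11 ± 0.41, or 8.63-fold. Klrc1 in NOD CD11b+ cDC was at 4.44, 4.26 and 4.10 after PBS and at 4.55, 5.50 and 4.59 after CpG, a difference of 0.61 ± 0.41 with no overlap. Klrc1 had the widest spread among replicates of the 9 genes in 3 of the 4 CD8+ groups, and among the NOD PBS arrays 1 was at 5.77 and the other two at 4.34 and 4.17.

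Klrd1 went the other way from its partner. It was at 10.72, 10.79 and 10.56 in B6 CD11b+ cDC after PBS and at 9.90, 10.48 and 9.80 after CpG, a difference of -0.63 ± 0.24. NOD CD11b+ cDC were at 10.71, 10.98 and 10.63 after PBS and at 10.13, 10.21 and 10.08 after CpG, which is also a difference of -0.63 ± 0.24. In CD8+ cDC it went from 9.71, 9.87 and 9.38 to 7.76, 7.72 and 8.49 in B6 (-1.66 ± 0.24) and from 9.30, 8.96 and 8.94 to 7.48, 7.90 and 8.70 in NOD (-1.04 ± 0.24). The CpG and PBS arrays of Klrd1 overlapped in none of the 4 settings.

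Klre1 encodes a lectin-like receptor that pairs with the products of Klri1 or Klri2. It was at 5.27, 6.06 and 4.61 in B6 CD11b+ cDC after PBS and at 7.83, 9.53 and 7.62 after CpG, a difference of 3.01 ± 0.34 without overlap. NOD CD11b+ cDC had it at 4.28, 4.17 and 4.13 after PBS and at 4.56, 4.51 and 4.89 after CpG, a difference of 0.46 ± 0.34, also without overlap. Its range over the 3 CpG-treated B6 CD11b+ arrays, 1.91, was the widest of the 9 genes in that group.

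Txk encodes a Tec family kinase that acts below antigen and NK receptors and promotes interferon gamma expression. It was at 5.09, 5.41 and 5.20 in B6 CD11b+ cDC after PBS and at 7.01, 7.72 and 6.50 after CpG (1.84 ± 0.22). It stood in NOD CD11b+ cDC at 4.99, 4.86 and 4.84 after PBS and at 4.72, 5.15 and 5.09 after CpG, and these groups overlapped (0.09 ± 0.22). Outside CpG-treated B6 CD11b+ cDC, Txk ranged from 4.63 to 5.71.

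Eomes was at 5.05, 5.70 and 5.11 in B6 CD11b+ cDC after PBS and at 7.62, 8.46 and 7.16 after CpG, a difference of 2.45 ± 0.25. NOD CD11b+ cDC held it at 4.61, 4.51 and 4.62 after PBS and at 5.19, 4.84 and 5.44 after CpG (0.58 ± 0.25), without overlap. The 21 arrays other than CpG-treated B6 CD11b+ cDC ranged from 4.51 to 5.70.

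Tbx21 differed by subset before it differed by injection. It was at 6.70, 6.66 and 6.82 in PBS-treated B6 CD11b+ cDC and at 6.70, 6.71 and 7.07 in PBS-treated NOD CD11b+ cDC, above all 12 CD8+ arrays, which ranged from 5.34 to 5.89. After CpG it was at 7.60, 8.09 and 7.50 in B6 CD11b+ cDC (1.00 ± 0.15) and at 6.79, 6.85 and 7.16 in NOD CD11b+ cDC (0.11 ± 0.15). The B6 groups did not overlap and the NOD groups did.

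In B6 CD11b+ cDC the CpG and PBS arrays of all 9 genes thus did not overlap. They were higher with CpG for 8, where 20.3% of all tested genes were higher without overlap, and lower for 1, where 31.3% were lower without overlap. In NOD CD11b+ cDC the CpG arrays of 5 genes were all higher (16% of tested genes) and those of 1 all lower (18.7%). In CD8+ cDC only Klrk1 was higher and Klrd1 lower without overlap in B6 (24.9% and 39.7% of tested genes). In NOD CD8+ cDC Ncr1 was higher and Klrd1 lower without overlap (17.3% and 27.2% of tested genes). These shares are the background, and nothing is read from the comparison because the genes were chosen with these values known. The median difference over the 9 genes was 2.45 in B6 CD11b+ cDC, 0.46 in NOD CD11b+ cDC, 0.19 in B6 CD8+ cDC and 0.11 in NOD CD8+ cDC, against medians over all tested genes of -0.07, -0.04, -0.09 and -0.08. With 1 array left out, the median ranged from 0.12 to 0.38 in B6 CD8+ cDC and from 0.03 to 0.15 in NOD CD8+ cDC.

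**Figure D2:**
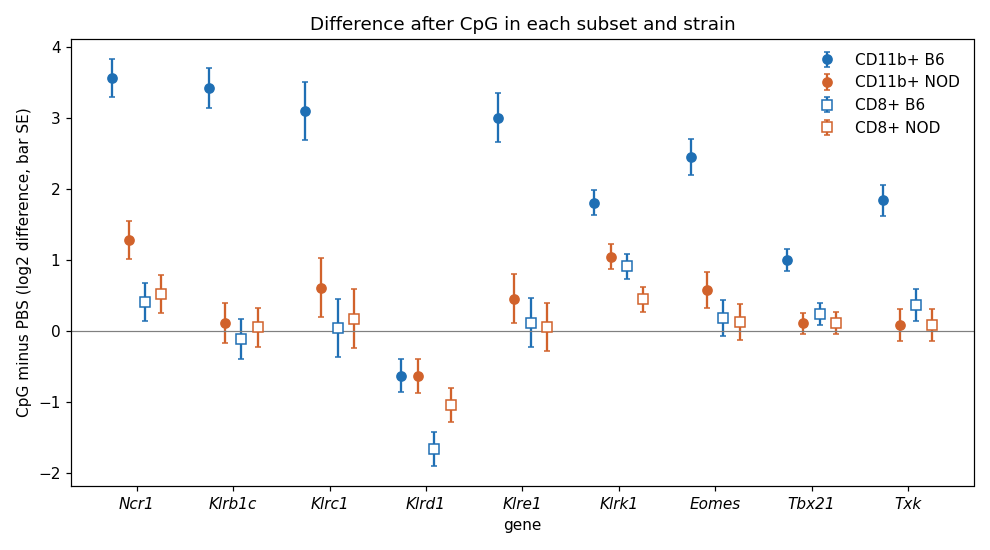
Difference between CpG and PBS in log2 expression (vertical axis, bars of 1 SE from the fit) for each of the 9 genes (horizontal axis) in the 4 combinations of subset (circles CD11b+, squares CD8+) and strain (blue B6, orange NOD). For the 8 genes other than Klrd1 the B6 CD11b+ difference is the highest of the 4, and the differences of Klrd1 are all below 0, from -1.66 to -0.63.

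The strains differed within CD11b+ cDC already after PBS. Values of 6 genes (Ncr1, Klrb1c, Klrc1, Klre1, Eomes and Txk) were lower in NOD than in B6 without overlap (11.8% of tested genes), by 0.33 ± 0.22 for Txk up to 2.31 ± 0.41 for Klrc1. Klrk1, Klrd1 and Tbx21 overlapped between the strains. After CpG 7 genes were lower in NOD without overlap (16.6% of tested genes), the same 6 and Tbx21. Klrc1 was then lower by 4.81 ± 0.41, Klrb1c by 4.51 ± 0.28 and Ncr1 by 4.32 ± 0.27, while Klrd1 differed by 0.08 ± 0.24. The difference between the strains in the CpG difference was -3.31 ± 0.40 for Klrb1c, -2.55 ± 0.48 for Klre1, -2.49 ± 0.58 for Klrc1 and -2.28 ± 0.38 for Ncr1. For Klrk1 it was -0.76 ± 0.25, and for Klrd1 CpG and PBS differed by -0.63 in both strains.

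In CD8+ cDC the strain differences of these 6 genes were smaller than in CD11b+ cDC, whereas Klrd1 was lower in NOD by 0.58 ± 0.24 after PBS, without overlap. After PBS 3 genes were lower in NOD without overlap (8.94% of tested genes) and after CpG 6 (11.7%). Ncr1 was lower in NOD by 0.82 ± 0.27 after PBS and by 0.71 ± 0.27 after CpG. After PBS, CD11b+ cDC of B6 mice were higher than CD8+ cDC without overlap for 4 genes (22.5% of tested genes), namely Ncr1 (1.60 ± 0.27), Tbx21 (1.17 ± 0.15), Klrd1 (1.04 ± 0.24) and Klrb1c (0.96 ± 0.28). After CpG all 9 were higher in CD11b+ than in CD8+ cDC of B6 mice without overlap (29.7% of tested genes), from 0.70 ± 0.18 for Klrk1 to 4.77 ± 0.27 for Ncr1. In NOD mice 3 genes were higher (19.9% of tested genes) and 1 lower (17.7%) without overlap after PBS, and 5 were higher after CpG (26.1%). The highest subset differences in NOD belonged to Klrd1 (1.71 ± 0.24 after PBS and 2.12 ± 0.24 after CpG) and Tbx21 (1.45 ± 0.15 and 1.44 ± 0.15).

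Ordering the 8 groups by mean showed the same division. For Ncr1, Klrb1c, Klrc1, Klre1, Eomes and Txk the CpG-treated B6 CD11b+ group was first and did not overlap the second, which lay between 1.74 (Txk) and 3.57 (Ncr1) lower. Below that step, neighbours overlapped in most places, and for Klrb1c all 6 groups from the third to the last overlapped their neighbours. For Klrk1 the 4 CpG groups were the first 4, and neighbours among the first 3 overlapped. For Tbx21 the 4 CD11b+ groups were the first 4, with a step of 0.93 to the CD8+ groups. For Klrd1 the first 4 were the CD11b+ groups as well, led by both PBS groups, which overlapped.

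Replicates of some groups differed in the same direction for most of the 9 genes. In CpG-treated B6 CD11b+ cDC the array of replicate 2 held the highest value of all 9 genes, with a mean over the 9 of 9.37 against 8.53 and 8.26 on the other two. Replicate 2 was highest for 9 of 9 genes in PBS-treated B6 CD8+ cDC and for 7 of 9 in PBS-treated B6 CD11b+ cDC. In the other 5 groups no array held the highest value of more than 5 genes, and in PBS-treated NOD CD11b+ cDC the highest values fell 4, 2 and 3 times on the 3 arrays. Leaving that CpG array out gave differences of 3.28 for Ncr1, 2.96 for Klrb1c, 2.79 for Klrc1 and 2.41 for Klre1. Over 24 arrays Pearson's r between Ncr1 and Klrb1c was 0.96, and over the 18 arrays without B6 CD11b+ cDC it was 0.38. For Klre1 and Ncr1 these values were 0.96 and 0.74, for Eomes and Klrb1c 0.93 and -0.19, and for Klrd1 and Tbx21 0.68 and 0.70. Klrd1 and Klrk1 gave -0.09 over 24 arrays. The order of replicates was not particular to the 9 genes. In PBS-treated B6 cDC of both subsets, replicate 2 was also highest for every tested monocyte and red pulp macrophage marker. C1qc was at 6.95, 8.97 and 7.60 in CD8+ and at 8.59, 9.75 and 8.93 in CD11b+ cDC. In CpG-treated B6 CD11b+ cDC all of these markers but Cd14 and Csf1r were highest on replicate 3. The cause was not tested. These are descriptions of arrays that share groups, strains and preparation.

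Among all other tested genes, those most like the mean of the 9 centred profiles over 24 arrays were Klra8 (r = 0.98), Klrb1a (0.97), Klra3 (0.97), Prf1 (0.96) and Fasl (0.95). Single members had other companions. Klrd1 was most like Lcp2 (0.97), a signalling adaptor of myeloid cells and lymphocytes, and Tyrobp (0.96), the DAP12 adaptor of activating receptors. Klrk1 was most like Mlkl (0.94), a necroptosis effector, and Cxcl11 (0.93), an interferon-induced chemokine, and Tbx21 was most like Lilra6 and Grpr (both 0.94). Eomes was most like Sh2d2a and Ctsw (both 0.97), and Txk like Klrb1a (0.97) and Klrc2 (0.96). Klra8, Klrb1a, Fasl, Sh2d2a and Klrc2 passed the filter only through CpG-treated B6 CD11b+ cDC, where most of the 9 genes were highest. Their likeness was therefore partly given in advance, and these r values support nothing.

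Klre1, Klrd1, Klrk1 and Klrc1 lie close together on chromosome 6, in that order, with Klrc3 and Klrc2 between the last 2. This stretch was laid out after the values were seen. In B6 CD11b+ cDC Klrd1 (-0.63) thus sat between Klre1 (3.01) and Klrk1 (1.81). Klrc2, which encodes the activating NKG2C, was 1.94 ± 0.23 higher with CpG, a value given without a test because Klrc2 was above the array median on 0 of the other 21 arrays. Klri2 rose by 1.27 ± 0.29 (adjusted p = 0.00106, limma with Benjamini-Hochberg adjustment), whereas Gabarapl1, next to Klre1, differed by -0.43 ± 0.22 and did not pass (adjusted p = 0.137, limma). Klra17 at the far side fell by 1.34 ± 0.26 (adjusted p = 0.000272, limma).

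**Figure D3:**
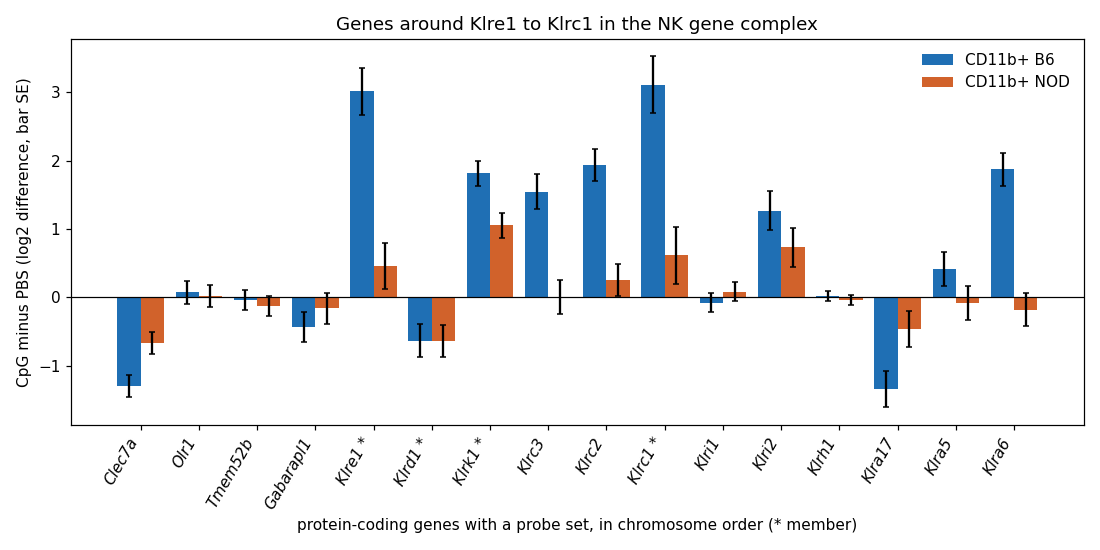
Difference between CpG and PBS in log2 expression (vertical axis, bars of 1 SE) in CD11b+ cDC of B6 (blue) and NOD (orange) for 16 protein-coding genes with a probe set, in chromosome order from Clec7a to Klra6 (horizontal axis, evenly spaced, asterisks mark members of the 9). Klrd1 is at -0.63 in both strains between neighbours that are higher with CpG in B6, and Klrc3, Klra6, Klra5, Klrh1, Olr1 and Tmem52b did not pass the filter on low values.

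Other genes of the NK pathway were grouped by role and tested with limma across all 11365 genes. Some of them, like Klrb1c, passed the filter on low values only through CpG-treated B6 CD11b+ cDC, being above the median on fewer than 3 of the other 21 arrays. Their values are given without a test and they are left out of the counts, also for the other comparisons. Of 24 other NK receptor genes tested (35 listed) 7 were of this kind, and of the remaining 17 genes 9 rose and 4 fell with CpG in B6 CD11b+ cDC, where 15.7% of tested genes rose and 22.9% fell. Il2rb, the signalling chain of the interleukin-2 and interleukin-15 receptors, was at 7.14, 7.83 and 7.0 after PBS and at 11.10, 11.61 and 10.70 after CpG, and rose by 3.82 ± 0.31 (adjusted p = 1.51e-09, limma). The Ly49 receptor gene Klra3 rose as well (2.74 ± 0.25). Without a test, CpG and PBS differed by 2.83 ± 0.28 for Klra8, also a Ly49 gene, by 2.78 ± 0.24 for Klrb1a and by 2.59 ± 0.21 for the integrin gene Itga2, which encodes the NK marker CD49b. Cd7 (-1.37 ± 0.26) and Cd244a (-1.05 ± 0.15) were among those that fell. In NOD CD11b+ cDC 2 receptor genes rose (9.58% of tested genes) and 3 fell (5.69%). Il2rb rose there by 1.73 ± 0.31 (adjusted p = 0.000303, limma), and Klrb1b fell by 1.40 ± 0.24 (adjusted p = 0.000171, limma), whereas in B6 it rose by 1.16 ± 0.24. The Klra, Klrb1 and Klrc genes are families of close copies, and how far a probe set also takes up RNA of a related copy was not tested.

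In CD8+ cDC 1 receptor gene rose and 5 fell in B6 (21% and 36.2% of tested genes), and 2 rose and 2 fell in NOD (15% and 25.3%). The response of 7 of the 17 receptor genes to CpG was lower in NOD than in B6 CD11b+ cDC by the test of the interaction (1.95% of tested genes) and that of 0 was higher (4 at an unadjusted p under 0.05, limma), where 2.38% of tested genes were. The interaction was -2.57 ± 0.34 for Klrb1b (adjusted p = 6.9e-05, limma) and -2.08 ± 0.45 for Il2rb (adjusted p = 0.00757, limma). Klra17, a further Ly49 gene, ran opposite to the other named receptors between strains. It was at 6.98, 6.74 and 6.67 in PBS-treated B6 CD11b+ cDC and at 9.86, 10.14 and 9.92 in PBS-treated NOD CD11b+ cDC, 3.18 ± 0.26 higher in NOD (adjusted p = 1.14e-08, limma), and 4.05 ± 0.26 higher in NOD after CpG.

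Of 18 adaptors and kinases below NK receptors 5 passed the filter only through CpG-treated B6 CD11b+ cDC, and of the remaining 13 genes 2 rose and 6 fell in B6 CD11b+ cDC (15.7% and 22.9% of tested genes). Without a test, CpG and PBS differed by 2.40 ± 0.21 for Prkcq, by 2.40 ± 0.33 for Sh2d1a, the adaptor SAP, by 2.24 ± 0.21 for Sh2d2a and by 1.60 ± 0.20 for Zap70, 4 of these 5. The kinase gene Syk, which couples immune receptors to signalling in myeloid and B cells, fell by 1.13 ± 0.17. Tyrobp (-0.17 ± 0.12) and Fcer1g (0.37 ± 0.16), adaptors that cDC share with NK cells, did not pass (adjusted p = 0.262 and 0.0774, limma). Fcer1g passed under 3 alternatives. In NOD CD11b+ cDC 1 of the 13 rose and 0 fell (1 at an unadjusted p under 0.05, limma), where 9.58% of tested genes rose and 5.69% fell. Of 13 other transcription factors of the NK lineage 9 rose in B6 and 2 in NOD CD11b+ cDC (15.7% and 9.58% of tested genes). Nfil3, which is required for NK cell development, rose by 2.09 ± 0.21 in B6 and was 0.16 ± 0.21 in NOD (adjusted p = 0.689, limma), with an interaction of -1.92 ± 0.30 (adjusted p = 0.000358, limma). Stat4, which transmits interleukin-12 signals, rose by 2.39 ± 0.27 in B6 CD11b+ cDC and more in CD8+ cDC of B6 (4.82 ± 0.27) and NOD (3.51 ± 0.27). Its difference in NOD CD11b+ cDC was 0.66 ± 0.27 (adjusted p = 0.103, and 0.0354 with the replicate number as a block, limma). Runx3 (-0.11 ± 0.19) and Zeb2 (0.04 ± 0.18) did not pass in B6.

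Most of the tested cytotoxic granule and effector genes rose in both strains. Of 16 listed 12 were tested, and Fasl and Ifng among these passed the filter only through CpG-treated B6 CD11b+ cDC. Of the remaining 10 genes 10 rose in B6 CD11b+ cDC (15.7% of tested genes), 9 in NOD CD11b+ cDC (9.58%), 8 in B6 CD8+ cDC (21%) and 7 in NOD CD8+ cDC (15%). Gzmb, which encodes granzyme B, was at 5.13, 6.03 and 5.23 in B6 CD11b+ cDC after PBS and at 11.83, 12.37 and 11.68 after CpG, and in NOD at 5.06, 4.54 and 4.80 and at 8.08, 8.40 and 8.18. It rose by 6.50 ± 0.29 in B6 and by 3.42 ± 0.29 in NOD, with an interaction of -3.08 ± 0.41 (adjusted p = 6.92e-05, limma). Prf1, the pore-forming perforin, rose by 3.94 ± 0.22 and 0.86 ± 0.22. Ifng, the main cytokine of activated NK cells, differed between CpG and PBS by 3.81 ± 0.22 in B6 and 0.44 ± 0.22 in NOD, without a test. Fasl, also without a test, was higher with CpG in B6 CD11b+ cDC, at 7.59, 8.28 and 6.91 against 5.17, 5.05 and 4.96. In NOD CD11b+ cDC it was lower with CpG without overlap, at 4.77, 4.87 and 4.79 against 5.36, 5.09 and 5.05. Gzma rose by 3.71 ± 0.36 in B6 and 3.32 ± 0.36 in NOD, and its interaction of -0.40 ± 0.51 did not pass (adjusted p = 0.753, limma). The interaction passed for 6 of these 10 genes (1.95% of tested genes), each with a lower response in NOD.

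Genes for ligands and cytokines that act on NK cells changed in both strains. Of 10 tested of 20 listed, 7 rose in each of the 4 settings, and 2 fell in B6 CD11b+, 3 in B6 CD8+ and 2 in NOD CD8+ cDC, against shares of tested genes from 9.58% to 21% that rose and from 22.9% to 36.2% that fell there. Il12b rose by 4.18 ± 0.17 in B6 and 3.59 ± 0.17 in NOD CD11b+ cDC, and Il15 by 3.25 ± 0.20 and 3.37 ± 0.20. The interaction of strain with CpG passed for 0 of the 10 at an adjusted p under 0.05 (limma) and for 5 at an unadjusted p under 0.05. For Il15ra it was -1.09 (adjusted p = 0.0628, limma). That value passed with the replicate number as a block (0.0025) and when only the groups compared were fitted (0.0119). The interaction was -0.60 ± 0.24 for Il12b (adjusted p = 0.177, limma) and 0.12 ± 0.29 for Il15 (adjusted p = 0.879, limma). The level of Il15 was nevertheless lower in NOD CD11b+ cDC after PBS, by 1.48 ± 0.20 (adjusted p = 2.71e-05, limma). Pvr, a ligand of the receptors CD226 and TIGIT, rose by 2.36 ± 0.18 in B6 and 1.9 ± 0.18 in NOD CD11b+ cDC.

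**Figure D4:**
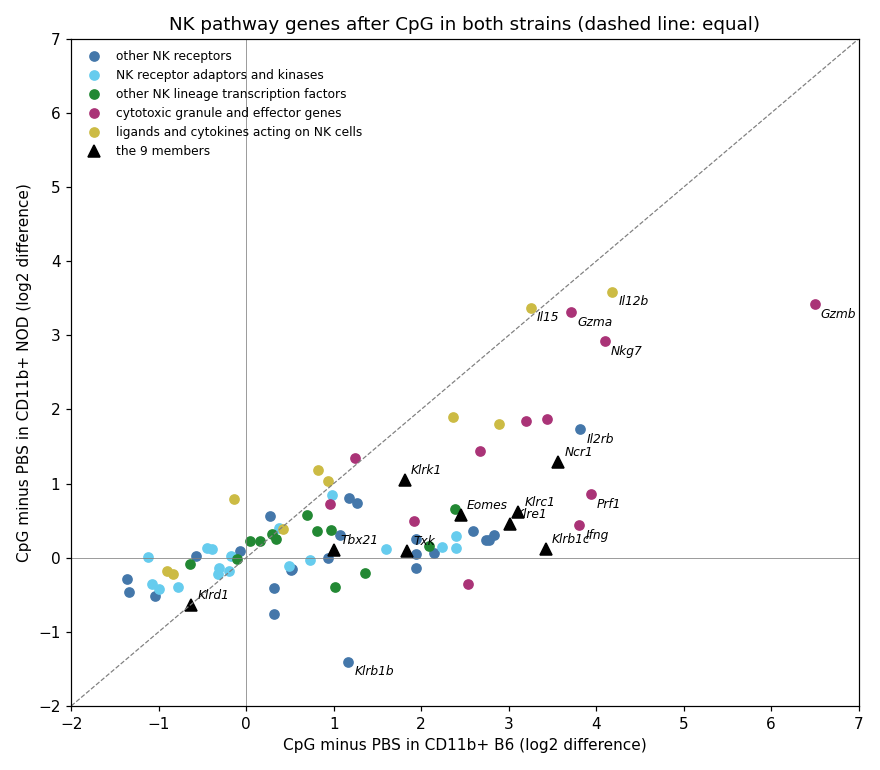
Difference between CpG and PBS in log2 expression in B6 (horizontal axis) against NOD (vertical axis) CD11b+ cDC, for genes of 5 NK pathway lists (circles, coloured by list) and the 9 genes (triangles). Il15 and Gzma lie near the dashed line of equal change, Klrd1 lies on it, and Gzmb, Prf1, Ifng and the other 8 of the 9 genes lie below it.

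Markers of other cells were read on the same arrays. In bulk RNA from a sort, fewer cells of a type and less RNA per cell cannot be told apart. Of 9 tested T cell markers 3 rose and 1 fell in B6 CD11b+ cDC, where 15.7% of tested genes rose and 22.9% fell. Those that rose were Cd8b1, which encodes the beta chain of CD8 (2.11 ± 0.19), and the costimulatory receptor genes Cd28 (1.86 ± 0.25) and Icos (1.28 ± 0.14). Per array, the mean over the 13 measured was between 5.77 and 5.90 after PBS and between 6.15 and 6.21 after CpG. Cd3e, the defining T cell chain, was at 5.74, 6.00 and 5.94 after PBS and at 6.04, 5.59 and 6.01 after CpG, near the array median, and did not pass (adjusted p = 0.954, limma). Of 10 B cell markers 2 fell in that comparison, near the background of 22.9%, and their mean was between 6.68 and 7.24 after PBS and between 6.07 and 6.63 after CpG. B cell markers were higher in NOD, for 5 of 10 genes in CpG-treated CD11b+ cDC (13.7% of tested genes were higher). Of 10 pan-cDC markers 8 fell with CpG in B6 CD11b+ cDC (22.9% of tested genes) and 0 in NOD (5.69%), also at an unadjusted p under 0.05 (limma). Itgax, which encodes CD11c, was at 11.32, 11.28 and 11.29 after PBS and at 9.99, 9.92 and 10.11 after CpG in B6, and at 11.20, 11.18 and 11.15 and at 10.78, 10.84 and 10.92 in NOD. The NOD groups did not overlap, and the difference of -0.33 ± 0.18 passed when only the groups compared were fitted (adjusted p = 0.0111, limma) but not over all 24 arrays (0.254). Itgam fell by 1.99 ± 0.24 in B6 and by 1.41 ± 0.24 in NOD. Of 11 CD11b+ cDC markers 7 fell and 1 rose in B6 CD11b+ cDC (22.9% and 15.7% of tested genes). In NOD CD11b+ cDC 3 of them fell and 2 rose (5.69% and 9.58% of tested genes). Of 12 CD8+ cDC markers 7 fell and 3 rose in B6 CD11b+ cDC (22.9% and 15.7%), and 3 fell and 4 rose in NOD (5.69% and 9.58%). Ly75, which encodes the endocytic receptor DEC-205, rose by 2.29 ± 0.22 in B6 and 1.57 ± 0.22 in NOD, and Cd8a by 1.42 ± 0.26 and 1.12 ± 0.26. Among the 7 that fell in B6 were Wdfy4 (means 10.84 after PBS and 9.06 after CpG), Clec9a (8.71 and 7.26) and Xcr1 (7.15 and 6.08). Their means in NOD CD11b+ cDC were 11.16 and 10.66, 7.88 and 7.75, and 6.94 and 6.34. Of 7 tested plasmacytoid DC markers 3 rose in B6 (15.7% of tested genes) and 1 in NOD CD11b+ cDC (9.58%). Of 4 neutrophil markers 2 rose and 1 fell in B6 CD11b+ cDC (15.7% and 22.9%). Of 5 markers of innate lymphoid cells outside the NK lineage 2 rose in B6 (15.7%) and 3 in NOD CD11b+ cDC (9.58%). Of 11 monocyte and red pulp macrophage markers 2 rose and 3 fell in B6 CD11b+ cDC (15.7% and 22.9% of tested genes). Adgre1, an adhesion receptor gene of macrophages (-2.40 ± 0.31), and Csf1r (-1.85 ± 0.26) fell, while Fcgr1 (1.88 ± 0.20) and Spic (1.09 ± 0.24) rose, and the mean over the list was between 7.99 and 8.81 per array after PBS and between 7.69 and 8.48 after CpG. The strains differed in this macrophage list too. After PBS, Cd5l (means 4.58 in NOD and 6.45 in B6 CD11b+ cDC), Hmox1 (8.74 and 10.16) and Vcam1 (7.25 and 8.50) were lower in NOD without overlap. So were Spic, C1qa, C1qb, C1qc and Csf1r (11.8% of tested genes), whereas Cd14, Fcgr1 and Adgre1 overlapped. Lower values in NOD there were thus not particular to NK genes. The 9 genes and the other NK receptors are themselves used as markers of NK cells, and the part of any NK cells in the sort in these values was not tested.

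**Figure D5:**
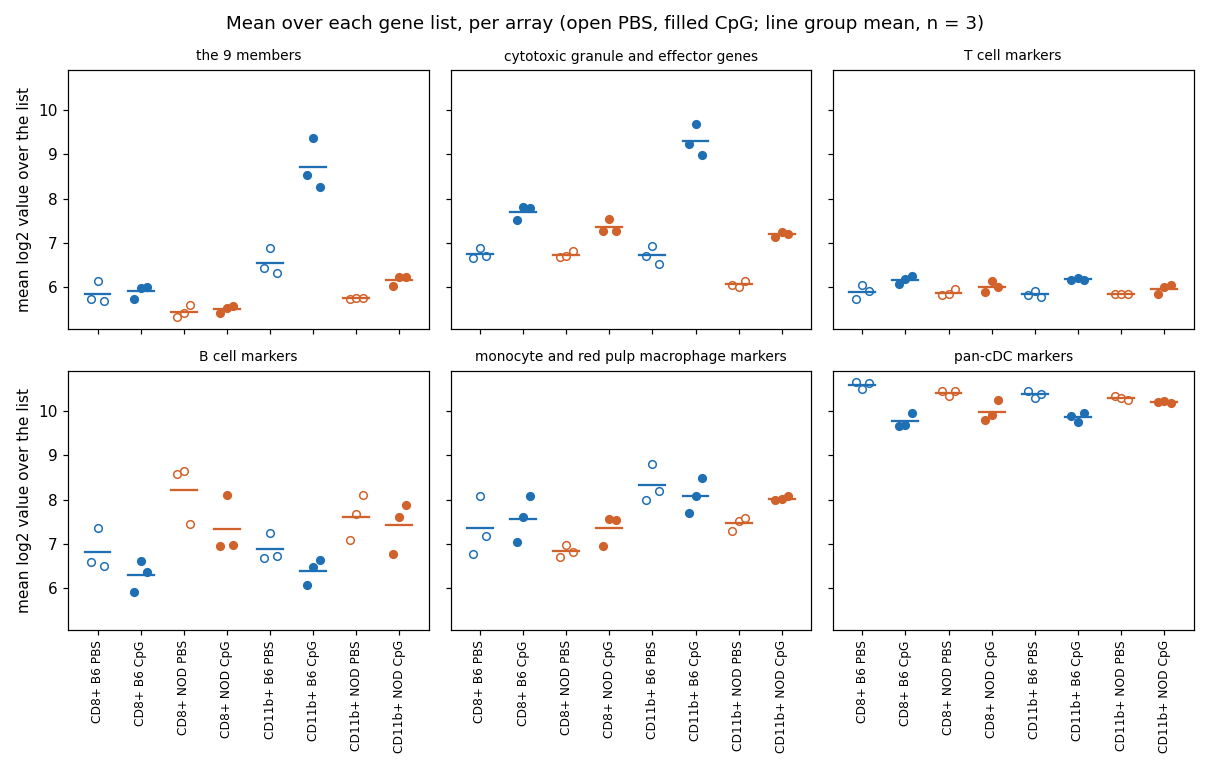
Mean log2 value over each gene list (vertical axis) on each of the 24 arrays, by subset, strain and injection (horizontal axis), with open symbols for PBS, filled for CpG, blue for B6, orange for NOD and lines at group means (n = 3). The 9 genes averaged between 8.26 and 9.37 in CpG-treated B6 CD11b+ cDC and between 5.32 and 6.88 on the other arrays, while the T cell mean was between 5.73 and 6.24 on all arrays and, in B6 CD11b+ cDC, higher after CpG without overlap.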

How the data were processed

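RNA of 24 sorted samples was measured on arrays. Per the labels' protocols, cDNA was amplified from 5 ng of RNA and 2.5 ug of it labelled. The array model in the labels is not that of the platform annotation used here. The deposited values are log2 expression values of 35556 probe sets, made with RMA and Partek per the submitters' processing notes, and their settings are not given in the sources used here. RMA scales arrays to each other, which can hide a shift common to all genes. Of these probe sets 21789 had a single symbol, 1621 several and 12146 none, and symbols were updated by gene ID through RefSeq. A gene with several probe sets was represented by the brightest on average. In R 4.3.3, limma 3.58.1 fitted a mean per group over 24 arrays (16 residual degrees of freedom) with a trend in eBayes, and 12 group comparisons and 4 interactions were tested two-sided with Benjamini-Hochberg adjustment at 0.05 within each. The script was tested on simulated data. Differences are given with the SE of this fit.

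The 9 genes, the 14 other gene lists and the motifs were chosen with earlier results of these data known. The text names the 9 genes, up to 4 called genes per list and comparison with the largest difference and no overlap, up to 2 genes not called with the highest mean, fixed markers and the genes most like the 9. Neighbours on chromosome 6 and the macrophage markers given by strain or by replicate are exceptions. Array number limits the precision. Probe sequences were not used here, so sequence differences of NOD under a probe could not be checked.

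Replicate numbers in the titles could pair arrays. Deviations of same-numbered arrays correlated above 0.1 in every pair for 8 of the 12 group comparisons (for CpG in NOD CD11b+ cDC between 0.15 and 0.21), but not for CpG in B6 CD11b+ cDC (between -0.11 and 0.14). Alternatives were no filter or a filter of 12 arrays, array median centring, quantile normalization, averaged probe sets per gene, no trend, only the groups compared, the replicate block and leaving out each array.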

Additional observations from a re-analysis of the deposited data

Results flagged for a closer look

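The results below stood out because the response to CpG differed between groups by the test of the interaction in limma. Between strains in CD11b+ cDC, the CpG difference of other NK receptor genes was lower in NOD than in B6, by -2.08 for Il2rb, -2.53 for Klra8, -2.54 for Klrb1a, -2.5 for Klra3, -2.23 for Itga2, -2.57 for Klrb1b and -1.69 for Klrc2. Among adaptors and kinases the interaction was -2.12 for Prkcq, -2.27 for Sh2d1a, -2.10 for Sh2d2a and -1.48 for Zap70, and 1.14 for Syk, which fell in B6 CD11b+ cDC only by the call there (its difference in NOD was 0.01 ± 0.17). Among transcription factors it was -1.92 for Nfil3, -1.73 for Stat4 and -1.57 for Ets1. Among effector genes it was -3.08 for Gzmb, -3.08 for Prf1, -3.37 for Ifng and -2.89 for Fasl. The arrays of Klrb1b and of Fasl moved in opposite directions in the strains. For both genes all CpG arrays lay above the PBS arrays in B6 and below them in NOD. Klra8, Klrb1a, Itga2, Klrc2, Prkcq, Sh2d1a, Sh2d2a, Zap70, Ifng and Fasl passed the filter on low values only through CpG-treated B6 CD11b+ cDC, so their interactions, here and between subsets, are given as values and their tests support nothing. In NOD CD11b+ cDC the means of Klra8 were 3.83 after PBS and 4.13 after CpG, near the bottom of its range. Whether NOD RNA binds the Klra and Klrb1 probe sets as B6 RNA does was not tested.

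Between subsets in B6 mice, the CpG difference was higher in CD11b+ than in CD8+ cDC by 3.31 for Gzmb, 3.38 for Prf1, 3.18 for Ifng, 3.15 for Il2rb, 2.58 for Itga2, 3.71 for Il12b and 2.67 for Klra3. Stat4 ran the other way, with an interaction of -2.42. The 9 genes were not tested for such differences because their values had chosen them.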

How the results depend on the processing

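Over 168 alternative values for the 12 medians of the 9 genes' differences 162 moved by less than the spread between replicates. All 1512 alternative values of single differences did so too, but for most of them this was fixed in advance. The filters, averaged probe sets, no trend, the replicate block and fitting only the groups compared leave these differences and medians unchanged. Leaving out 1 of 3 arrays cannot move a single difference past this spread. Only the median centring and quantile normalization could have, so the count of 1512 says little. Of 2368 alternative values for named pathway genes 34 changed their side of the threshold, and no result reversed. The median difference between CD11b+ and CD8+ cDC of PBS-treated B6 mice (0.63) ranged from 0.26 to 0.98 when 1 array was left out, that of CpG-treated NOD mice (0.38) from 0.26 to 0.45, and that of CpG against PBS in NOD CD11b+ cDC (0.46) from 0.30 to 0.51. Counts of called pathway genes over the 5 NK lists include those that passed the filter only through CpG-treated B6 CD11b+ cDC. They are given without the share of all tested genes, only for how far they moved, and nothing is read from their size. They moved as follows. The interaction of subset with CpG in NOD gave 10, and 18 with the replicate block, and 7 to 23 with 1 array left out (23 without replicate 3 of CpG-treated NOD CD8+ cDC). With the filter of 12 arrays, which removes genes high in few arrays, NOD against B6 in CpG-treated CD11b+ cDC fell from 54 to 34 and the interaction of strain with CpG in CD11b+ cDC from 31 to 15. Fitting only the groups compared changed NOD against B6 in CD8+ cDC from 21 to 10 after CpG and from 8 to 13 after PBS, and the interaction of strain with CpG in CD8+ cDC from 11 to 6, and the cause was not tested. With 1 array left out the last 2 gave 4 to 7 (4 without replicate 3 of PBS-treated B6 CD8+ cDC, 5 without replicate 1 or 2 of PBS-treated NOD CD8+ cDC) and 8 to 19 (19 without replicate 1 of CpG-treated NOD CD8+ cDC). The replicate block moved no other count by over 1.5 times. It brought Fcer1g (CpG in B6 CD11b+ cDC, adjusted p = 0.0394), Stat4 (CpG in NOD CD11b+ cDC, 0.0354), Il2rb (CpG in CD8+ cDC of B6, 0.0234, and of NOD, 0.0491), and, in the interaction of strain with CpG in CD11b+ cDC, Il15ra (0.0025) and Nkg7 (0.0416) past the threshold (limma), and ended no call. The log2 values give no read depth, and genes near the bottom of the range have compressed differences.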

Other observations

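Nkg7 and Gzma differed between strains before CpG as well, while the proteoglycan gene Srgn of the same list overlapped between them. In PBS-treated CD11b+ cDC Nkg7, a granule membrane gene, was at 7.49, 8.56 and 7.50 in B6 and at 4.76, 4.91 and 5.42 in NOD, lower in NOD by 2.82 ± 0.29 (adjusted p = 4.33e-07, limma with Benjamini-Hochberg adjustment), and Gzma was lower by 2.72 ± 0.36 (adjusted p = 1.69e-05, limma). In CD8+ cDC after PBS Nkg7 was at 6.87, 7.63 and 7.10 in B6 and at 6.44, 6.70 and 7.24 in NOD, and those groups overlapped. Cd8a itself was higher in CpG-treated B6 CD11b+ cDC (8.45, 7.87 and 8.81) than in PBS-treated B6 CD11b+ cDC (6.47, 7.10 and 7.31), without overlap. Other CD8+ cDC markers went the other way there without overlap, with Clec9a at a mean of 7.26 after CpG and 8.71 after PBS, and Xcr1 at 6.08 and 7.15.

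Il12b had a high level in B6 CD8+ cDC without CpG, at 9.17, 8.96 and 8.85, while NOD CD8+ cDC were at 6.74, 6.39 and 6.68. After CpG it was at 9.32, 9.48 and 9.60 in B6 CD8+ cDC and at 10.89, 10.77 and 10.80 in B6 CD11b+ cDC, so that the order of the subsets in B6 was turned.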
